A study of Homo sapiens with 7 samples.

Results

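Histone genes were followed in N/TERT2G, human keratinocytes immortalized with telomerase, after knockdown of the transcriptional co-activators YAP1 and TAZ (gene symbol WWTR1). Members were taken by symbol alone: every entry of the expression table beginning with HIST and a cluster number, H2AF, H3F3 or H1F, without symbols that end in P and digits. That rule gave 42 of the 16686 gene symbols of the table and set aside 2 pseudogenes, H3F3AP4 and H3F3AP6. By the RefSeq annotation 38 of the 42 code for protein, 3 (HIST2H2BA, HIST2H2BC and HIST2H2BD) are pseudogenes that the symbol rule did not catch, and 1 is an antisense RNA, H1FX-AS1.

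The cells had been transfected with siGENOME SMARTpool siRNAs against YAP1 and against WWTR1 (siYT, n = 4, libraries A to D) or with a non-targeting siRNA (siCON, n = 3, libraries A to C), in both groups at 8 pmol per cm2 with Lipofectamine RNAiMAX, and were harvested 48 h later. No untransfected cells and no knockdown of either gene alone were analysed here, and all libraries come from a single immortalized line. Libraries were prepared from polyadenylated RNA. Values are the authors' TMM-normalized signal per gene, which is not divided by gene length, so levels are compared between groups and never between genes.

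Replication-dependent histone genes lie in clusters, are transcribed mainly in S phase and supply the core histones (H2A, H2B, H3 and H4) and the linker histone H1 as DNA is copied. Their mRNAs usually carry no poly(A) tail: the message ends just after a short stem-loop that the protein SLBP binds. Some of these genes also give longer, polyadenylated transcripts that run past the stem-loop, in differentiated cells among others, and a poly(A) library reads mainly these. Replacement or variant histones (H2AF, H3F3 and H1F symbols) are mostly ordinary polyadenylated genes made throughout the cell cycle and outside it.

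The stem-loops are printed because they separate the classes at the level of sequence. In the GRCh37 genome a stem-loop of 16 bases, with a stem of 6 base pairs and a loop of 4 bases, was searched within 100 bases after the stop codon. It stood in all 27 cluster genes with an annotated stop codon, against 1 of 10 variant genes and 71 of 20040 protein-coding genes (0.354%). Capitals mark the stem and lower case the loop, 5′ to 3′ on the strand of the gene.
HIST1H2AC, + strand, chr6:26124897-26124912: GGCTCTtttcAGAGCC
HIST1H2BD, + strand, chr6:26158815-26158830: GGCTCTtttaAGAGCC
HIST1H2BK, - strand, chr6:27114145-27114160: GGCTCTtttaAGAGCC
HIST2H2BE, - strand, chr1:149857738-149857753: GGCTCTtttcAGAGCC
HIST2H4A, + strand, chr1:149804596-149804611: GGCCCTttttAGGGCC
HIST1H4J, + strand, chr6:27792237-27792252: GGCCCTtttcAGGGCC
H2AFX, - strand, chr11:118965608-118965623: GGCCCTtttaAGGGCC
HIST1H2AC, which was higher in siYT, and HIST2H2BE, which was lower, carry the same 16 bases. HIST1H2BD and HIST1H2BK share another form, with a single different loop base. H2AFX, which codes for the DNA damage variant H2A.X, is the variant gene with a stem-loop.

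Of the 42 members, 24 averaged 1 or more over the 7 libraries and were tested with limma on log2(value + 0.5), and their p-values were adjusted by Benjamini-Hochberg across the 13072 genes of the table that passed the same filter. To be called, a gene needed a change of 1.5-fold or more with an adjusted p below 0.05. Folds printed for genes are those of this test and not ratios of group means. Called higher in siYT were 7 members, 29.2% of those tested, against 14.1% of all genes tested, and called lower were 6, or 25.0%, against 13.2% of all genes. The groups did not overlap for 19 members (12 higher in siYT, 7 lower), or 79.2%, beside 68.7% of all genes tested. The median log2 fold change was 0.21 over the members and 0.003 over all genes tested. The 24 are the genes with enough signal, not all members. Some called members passed the filter only through the group where they were high. These were HIST1H4H (mean 0.844 in siCON, 1.98 in siYT), HIST1H4J (1.71 and 0.818) and HIST3H2A (2.55 and 0.836).

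Most of the calls were cluster genes. Among 28 cluster genes, 14 were tested, of which 6 rose, 4 fell and 4 were not called (median log2 fold change 0.50). All 10 variants were tested: 1 rose, 2 fell and 7 were not called (median 0.06). Over all genes tested 14.1% rose and 13.2% fell. Summed over the 28 cluster genes the signal was 133 ± 10.3 (SD, n = 3) in siCON and 193 ± 10.6 (SD, n = 4) in siYT, a ratio of 1.45, and over the 10 variants 1090 ± 39.2 and 1110 ± 37.7, a ratio of 1.02. These sums are dominated by their most abundant genes and were not tested.

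**Figure D1:**
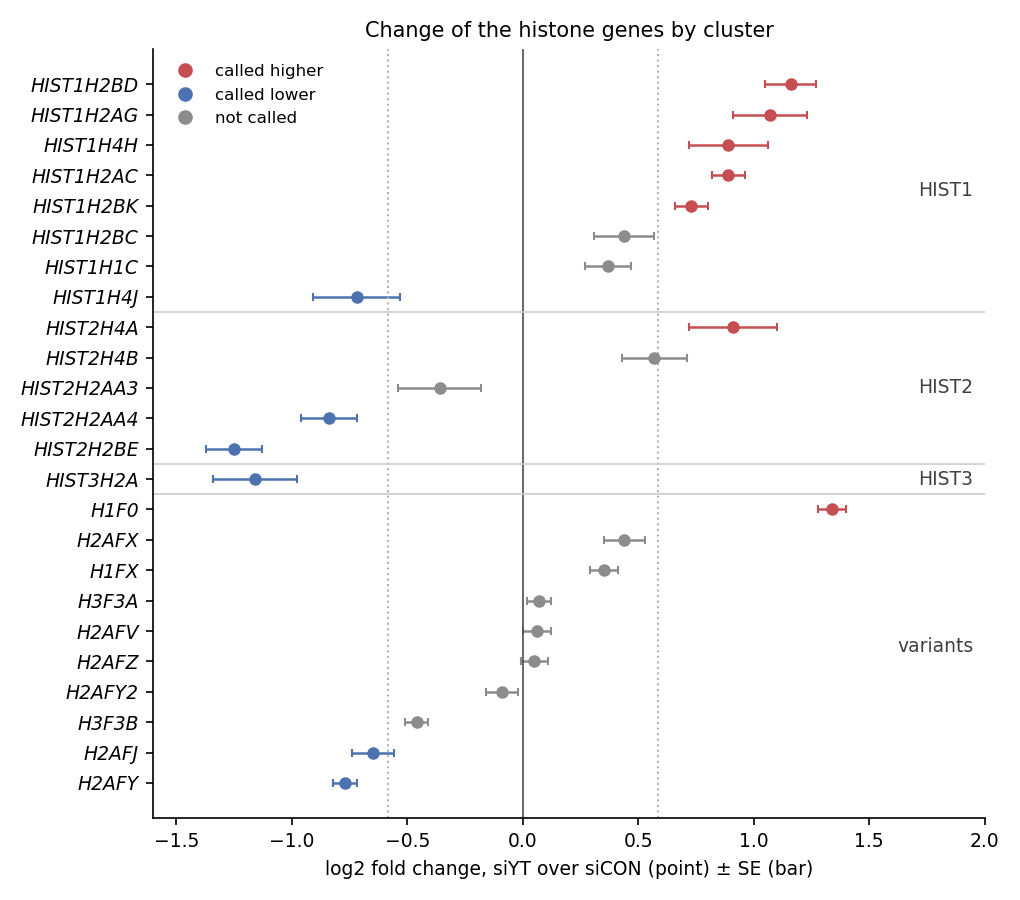
Log2 fold change (horizontal axis, siYT over siCON) of the 24 histone genes tested, with its standard error, ordered within the HIST1, HIST2 and HIST3 clusters and the variants; dotted lines mark 1.5-fold in each direction. Of 8 HIST1 genes 5 were called higher, beside 14.1% of all genes tested. HIST2H2BE at -1.25 and HIST3H2A at -1.16 had the lowest values plotted and H1F0 at 1.34 the highest. With a pseudocount of 0.1 HIST3H2A (-1.47) lay below HIST2H2BE (-1.34).

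The knockdown itself was seen in every siYT library. YAP1 read 231, 258 and 243 in siCON A, B and C and 65.2, 64.5, 76.2 and 68.1 in siYT A, B, C and D, a 3.55-fold lower level (adjusted p = 1.6e-12, limma), and WWTR1 fell 6.04-fold (adjusted p = 2.26e-12). Library totals of the deposited values were 941281 to 955106 in siCON and 866098 to 884761 in siYT, without overlap. All 7 keratinocyte markers were in the table, with a summed signal of 34100 to 35100 in siCON and 34100 to 37700 in siYT. Fibroblast markers (4 of 5 in the table, without LUM) summed to 225 to 254 and 186 to 193, led by DCN, whose own values were 136 to 144 and 80.7 to 91.4. Of the melanocyte, immune and endothelial lists 1 marker each was in the table (PMEL, CD14 and VWF), at 3.04 or less in every library. The part of the fibroblast list in the histone values was not tested. In bulk RNA of this single line, fewer cells with these transcripts and a lower level per cell cannot be told apart.

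In the HIST1 cluster on chromosome 6, which holds 20 of the members, most measured genes were higher after the knockdown. Of 8 tested, 5 rose (HIST1H2AC, HIST1H2BD, HIST1H2BK, HIST1H2AG and HIST1H4H), 1 fell (HIST1H4J) and 2 were not called, with a median log2 fold change of 0.81. Over all genes tested 14.1% rose and 13.2% fell, with a median of 0.003. The summed signal of the 20 genes was 87.0, 77.4 and 88.8 in siCON A, B and C and 144, 142, 145 and 160 in siYT A, B, C and D, a ratio of 1.75. Every siYT library lay above every siCON library. Below, values follow this order of libraries.

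Among the H2B genes of this cluster, HIST1H2BD rose most (chr6:26158349-26171577, + strand, GRCh37). It read 10.5, 7.65 and 10.4 in siCON and 20.3, 19.9, 21.9 and 25.1 in siYT. The lowest siYT library stood clear of the highest siCON library, and the log2 fold change was 1.16 ± 0.11 (SE), or 2.23-fold (adjusted p = 1.36e-07). HIST1H2BK (chr6:27106073-27114619, - strand) had 29.7, 26.7 and 28.2 in siCON against 48.9, 47.8, 42.7 and 49.7 in siYT. Its groups were again apart, at 1.66-fold (log2 fold change 0.73 ± 0.07, adjusted p = 7.32e-08). HIST1H2BK overlaps HIST1H4I on the opposite strand, and the sources used here do not state if counting used strand. HIST1H4I was listed at 0.083 to 0.35 in all 7 libraries. HIST1H2BC also lay higher in every siYT library (1.69 ± 0.22 in siCON, 2.48 ± 0.19 in siYT) but at 1.36-fold was not called (adjusted p = 0.00769).

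The H2A genes HIST1H2AC and HIST1H2AG moved in the same direction as these H2B genes. HIST1H2AC (chr6:26124373-26139344, + strand) read 26.1, 27.6 and 32.2 in siCON and 51.5, 49.6, 55.2 and 56.7 in siYT. All siYT values were above all siCON values, at 1.85-fold (log2 fold change 0.89 ± 0.07, adjusted p = 3.2e-08). HIST1H2AG was scarce, with 1.62, 1.06 and 1.19 in siCON and 3.11, 2.43, 3.54 and 4.02 in siYT. These groups did not overlap either, and the change was 2.10-fold (log2 fold change 1.07 ± 0.16, adjusted p = 2.9e-05).

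Core histone H4 genes of the cluster went both ways, at low signal. HIST1H4H had 0.991, 0.968 and 0.573 in siCON and 1.49, 2.08, 2.10 and 2.27 in siYT, a 1.86-fold rise (log2 fold change 0.89 ± 0.17, adjusted p = 0.000255). HIST1H4J had 2.21, 1.11 and 1.81 in siCON and 0.623, 0.863, 0.932 and 0.854 in siYT, a 1.64-fold fall (-0.72 ± 0.19, adjusted p = 0.00308). Neither gene had overlapping groups. The fall of HIST1H4J leaned on siCON A, its highest value: without that library the log2 fold change was -0.55 (adjusted p = 0.0272) and the 1.5-fold threshold was no longer met. The linker gene HIST1H1C read 10.9, 7.75 and 9.08 in siCON and 12.4, 11.6, 11.7 and 12.3 in siYT. Its groups were apart, but at 1.29-fold it was not called (adjusted p = 0.00352).

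**Figure D2:**
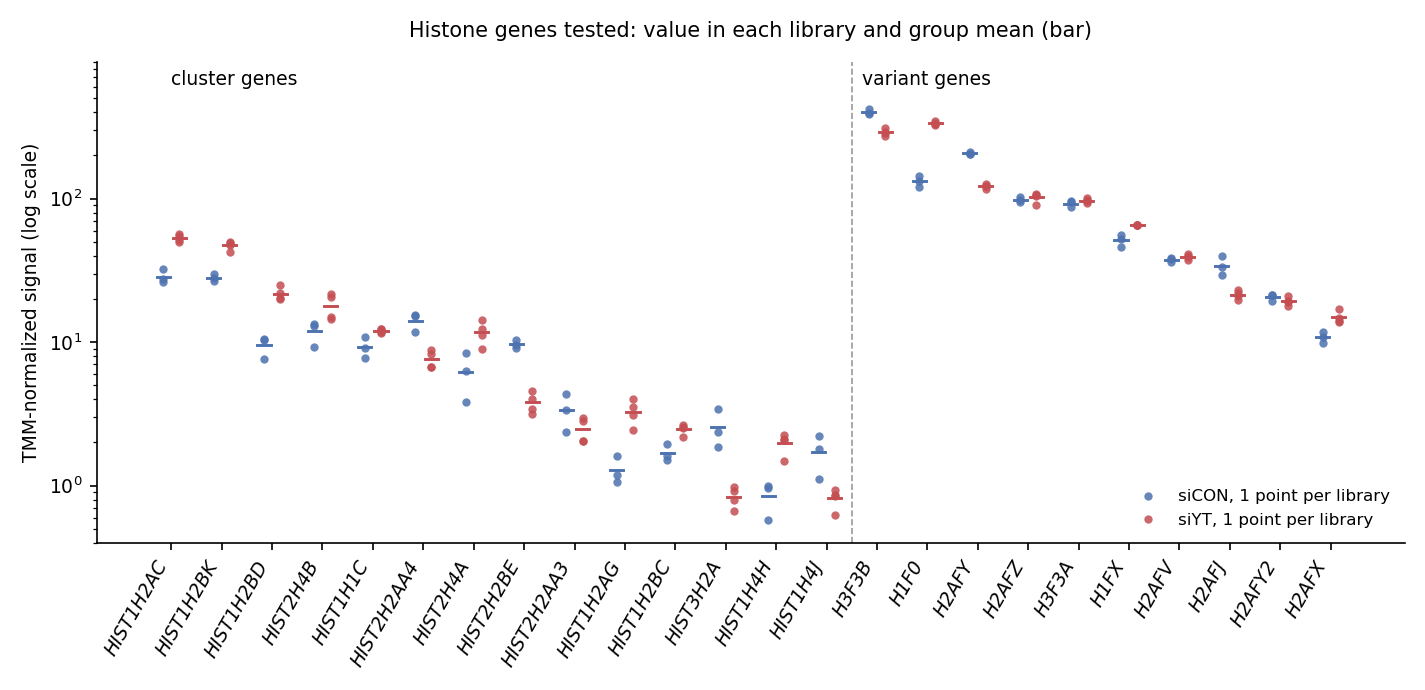
TMM-normalized signal (vertical axis, log scale) of the 24 histone genes tested in each library, siCON blue and siYT red, with bars at the group means. The signal is not divided by gene length, so heights are compared within a gene only; HIST1H2AC, HIST1H2BK and HIST1H2BD have all siYT points above all siCON points, while HIST2H2BE and H2AFY show the opposite order.

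The smaller HIST2 cluster on chromosome 1 was divided. Of its 6 genes 5 were tested, and its summed signal of 45.6 ± 3.83 (SD, n = 3) in siCON and 43.9 ± 2.56 (SD, n = 4) in siYT gave a ratio of 0.963, with overlapping libraries. HIST2H2BE (chr1:149856010-149858232, - strand) was called lower. It read 9.63, 9.04 and 10.4 in siCON and 3.44, 3.18, 4.56 and 4.05 in siYT. The highest siYT library was below the lowest siCON library, and the change was 2.38-fold (log2 fold change -1.25 ± 0.12, adjusted p = 1.49e-07). This H2B gene thus moved opposite to HIST1H2BD and HIST1H2BK.

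Pairs of duplicated genes make up the rest of the tested HIST2 genes. The 400 bases that end with the stem-loop had 0 mismatches between HIST2H4A and HIST2H4B, and 0 between HIST2H2AA3 and HIST2H2AA4, so reads of the coding part cannot be assigned to a single copy and the values of the copies depend on how the authors' quantification divided them. HIST2H4A read 3.82, 8.47 and 6.32 in siCON and 12.3, 9.02, 14.3 and 11.3 in siYT (1.88-fold, adjusted p = 0.000532). HIST2H4B read 13.3, 9.33 and 13.0 in siCON and 15.1, 20.5, 14.5 and 21.6 in siYT (1.48-fold, adjusted p = 0.00202, not called). The share of each copy differed between libraries of the same group. Their sum was steadier, at 17.1, 17.8 and 19.3 in siCON and 27.4, 29.5, 28.8 and 32.8 in siYT, and it was called higher (log2 fold change 0.70 ± 0.07, adjusted p = 4.61e-07).

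Of the H2A pair, HIST2H2AA4 was called lower, with 15.3, 11.8 and 15.4 in siCON and 8.79, 6.74, 6.74 and 8.33 in siYT (1.80-fold, adjusted p = 9.14e-06). HIST2H2AA3 overlapped between groups, with 4.38, 2.37 and 3.38 in siCON and 2.04, 2.83, 2.98 and 2.05 in siYT (adjusted p = 0.0774). Summed, the pair read 19.6, 14.2 and 18.8 in siCON and 10.8, 9.57, 9.72 and 10.4 in siYT, without overlap (log2 fold change -0.75 ± 0.10, adjusted p = 8.51e-06). HIST3H2A, a further H2A gene of chromosome 1 outside that cluster, read 1.85, 2.35 and 3.44 in siCON and 0.789, 0.98, 0.661 and 0.914 in siYT. All siYT libraries were below all siCON libraries, a 2.24-fold fall (log2 fold change -1.16 ± 0.18, adjusted p = 3.41e-05). HIST3H2A, HIST2H2BE and the HIST2H2AA pair were thus lower in the same libraries in which the HIST2H4 pair was higher.

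**Figure D3:**
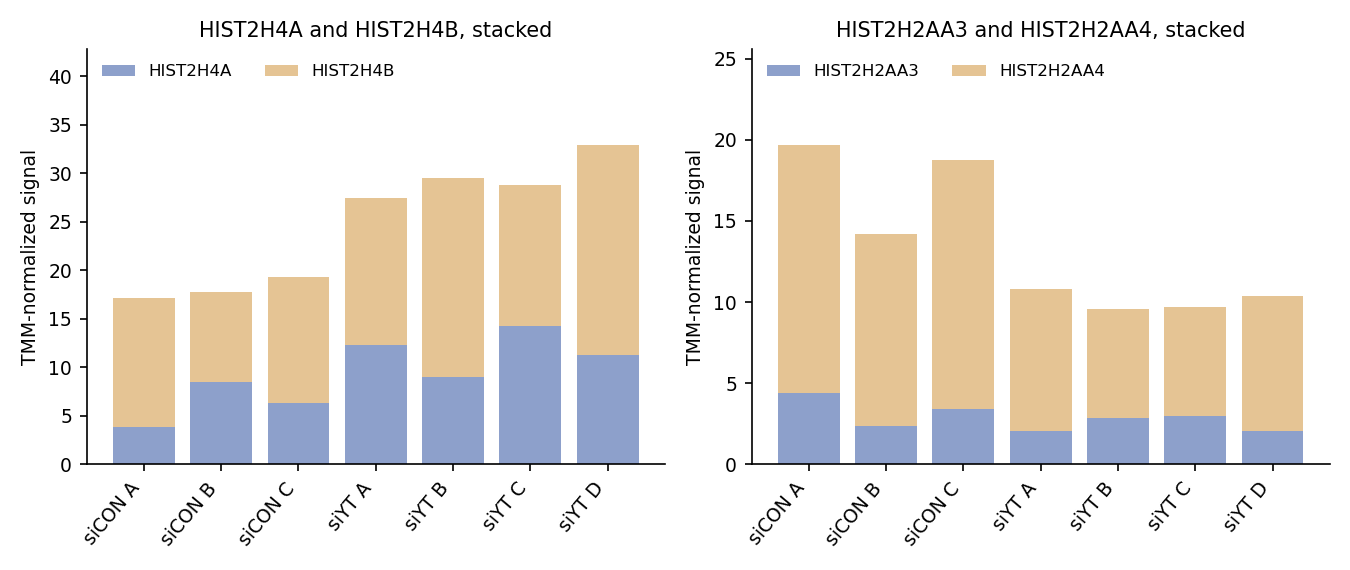
TMM-normalized signal (vertical axis) of each library for the duplicated pairs HIST2H4A and HIST2H4B (left) and HIST2H2AA3 and HIST2H2AA4 (right), with the copies stacked so that the top of a bar is their sum. The H4 sums were 17.1 to 19.3 in siCON and 27.4 to 32.8 in siYT, while the H2A sums were 14.2 to 19.6 and 9.57 to 10.8.

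The annotated gene models differ in how far they run past the stem-loop, up to 29195 bases for HIST2H2BF. The models of HIST1H2AD and HIST1H3D end before it and that of HIST1H2AI ends within it, and none of these was tested. Among the tested genes the shortest reach was 4 bases, for HIST1H1C. A model that goes on for kilobases counts spliced or read-through polyadenylated transcripts together with the short message. Of 14 cluster genes whose model reached 500 bases or more past the stem-loop, 9 were tested: 6 rose, 1 fell and 2 were not called (median log2 fold change 0.89). Of 13 with a shorter model, the 3 that end before or within the stem-loop included, 5 were tested: 0 rose, 3 fell and 2 were not called (median -0.72). Over all genes tested 14.1% rose and 13.2% fell. The exception among the long models was HIST2H2BE, which fell with a model reaching 1728 bases past its stem-loop, next to HIST1H2AG, which rose with 1761. The long models tested were mostly of HIST1 genes and the short ones mostly of HIST2 or HIST3 genes. Reach and cluster therefore cannot be fully told apart. HIST1H4H among the long models, and HIST1H4J and HIST3H2A among the short, passed the filter only through the group where they were high. The boundary of 500 bases was chosen after the values were seen, with 285 bases the longest model below it and 970 the shortest above, and the duplicated pairs count as separate genes, so the counts are a description. Where reads fell within each gene was not analysed here.

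**Figure D4:**
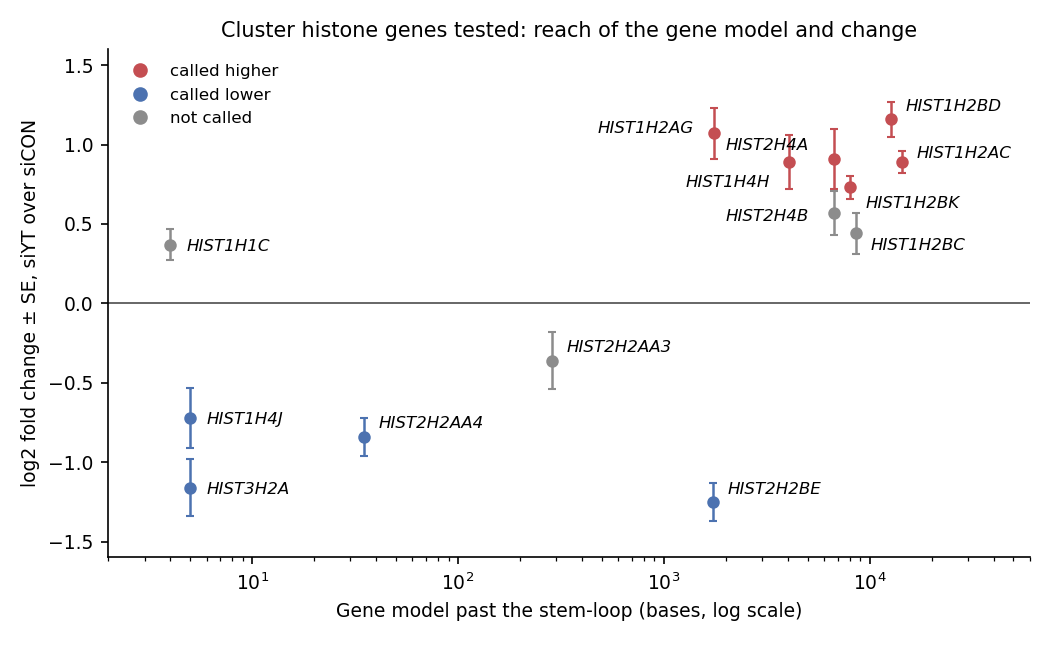
Log2 fold change with its standard error (vertical axis) of the 14 cluster genes tested against the number of bases by which the GRCh37 gene model runs past the stem-loop (horizontal axis, log scale). HIST1H1C, HIST1H4J, HIST3H2A and the HIST2H2AA pair end within 285 bases and none of them was called higher, while 6 of the 9 genes with longer models were. Over all genes tested 14.1% were called higher.

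Promoters are shown because H2A and H2B genes of the clusters often lie head to head, and the octamer (letters ATTTGCAT, searched on both strands) is the known element of H2B promoters. In RefSeq promoters of 300 bases (GRCh38.p14, 250 before the start and 50 after), matched for 37 of the 38 protein-coding members (not H1F0), the octamer was found in 7 of 9 cluster H2B genes, 4 of 8 cluster H2A genes, 1 of 3 cluster H3 genes, 0 of 6 cluster H4 genes and 0 of 2 cluster H1 genes. Among the variants it was found in 1 of 2 H3 genes (H3F3B), 0 of 6 H2A genes and 0 of 1 H1 genes. Genes that share an octamer are counted separately here. HIST1H2AD and HIST1H3D have the same promoter window. HIST1H2AE shares an octamer with HIST1H2BG, and HIST1H2AG with HIST1H2BJ. The octamer was found in 623 of 35116 promoters in the table (1.774%). The bases around it are given below with the octamer, or its reverse complement, in capitals, 5′ to 3′ on the strand of the gene.
HIST1H2BK, - strand, chr6:27146877-27146924: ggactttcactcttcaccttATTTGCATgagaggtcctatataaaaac
HIST2H2BE, - strand, chr1:149886701-149886748: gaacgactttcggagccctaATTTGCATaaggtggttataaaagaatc
HIST1H2BC, - strand, chr6:26124022-26124069: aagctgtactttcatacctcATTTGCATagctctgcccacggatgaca
HIST1H2AC, + strand, chr6:26124022-26124069: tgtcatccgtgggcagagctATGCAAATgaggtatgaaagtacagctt
HIST1H2BK and HIST2H2BE both have the octamer 46 bases before the start. Of these genes HIST1H2BK rose and HIST2H2BE fell. Whether the octamer has a part in any of the changes was not tested. HIST1H2BC and HIST1H2AC are a divergent pair that share the same octamer, read from either strand, and their log2 fold changes were 0.44 and 0.89. HIST1H2BD, which rose 2.23-fold, had no octamer in this window. Of 12 cluster genes with the octamer 5 were tested, of which 3 rose and 1 fell. Of 16 without it 9 were tested, of which 3 rose and 3 fell. Over all genes tested 14.1% rose and 13.2% fell. HIST1H2AC and HIST1H2BC are both among the tested genes with the octamer, and the variant H3F3B is outside these counts. A match is a description of the letters and not of a bound factor.

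Of the linker histone variants, H1F0 was called higher and H1FX was not called. H1F0 (chr22:38201114-38203442, + strand) codes for H1.0, the linker histone that accumulates in cells that have stopped dividing or have differentiated. It read 144, 120 and 133 in siCON and 325, 349, 333 and 335 in siYT. The groups were far apart relative to their spread, and the rise was 2.53-fold (log2 fold change 1.34 ± 0.06, adjusted p = 2.88e-11). H1FX read 55.9, 46.3 and 52.2 in siCON and 65.4, 66.0, 65.6 and 65.8 in siYT, with no overlap but at 1.28-fold (adjusted p = 8.81e-05, not called). H1FX overlaps the antisense RNA H1FX-AS1, which was listed at 0.353 to 0.973.

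The macroH2A gene H2AFY was lower after the knockdown, while its paralog H2AFY2 was not called. MacroH2A carries a large globular domain and is found in repressed chromatin. H2AFY (chr5:134669590-134735604, - strand) read 205, 213 and 205 in siCON and 126, 122, 117 and 123 in siYT. No siYT library reached the lowest siCON library, a 1.70-fold fall (log2 fold change -0.77 ± 0.05, adjusted p = 1.16e-09). H2AFY2 read 21.3, 21.2 and 19.4 in siCON and 21.0, 19.5, 19.1 and 18.0 in siYT, overlapping (adjusted p = 0.282), and its small difference of -0.09 turned to 0.02 when libraries were scaled to equal totals. H2AFY and H2AFY2 overlap other genes of the table on the opposite strand.

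H2AFJ codes for H2A.J, an H2A variant known to accumulate in senescent human fibroblasts. It read 39.9, 29.2 and 33.5 in siCON and 21.0, 22.0, 19.6 and 23.2 in siYT. Groups did not overlap, and the fall was 1.57-fold (log2 fold change -0.65 ± 0.09, adjusted p = 1.03e-05). It sat close to the threshold: without siCON A, the highest library, the log2 fold change was -0.54 and it was no longer called.

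The remaining H2A variants showed smaller differences or none that passed the test. H2AFX read 10.9, 9.91 and 11.8 in siCON and 14.8, 17.1, 13.8 and 14.1 in siYT, apart but at 1.35-fold (adjusted p = 0.000467, not called). H2AFZ, which codes for H2A.Z, read 102, 94.9 and 97.5 in siCON and 107, 106, 90.0 and 105 in siYT (log2 fold change 0.05, adjusted p = 0.491). H2AFV, which codes for the closely related second H2A.Z, read 37.8, 38.9 and 36.0 in siCON and 39.3, 41.3, 39.6 and 37.2 in siYT (0.06, adjusted p = 0.333). Values of both H2A.Z genes overlapped between groups.

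H3F3A and H3F3B code for the same protein, the replacement histone H3.3. H3F3B read 419, 390 and 393 in siCON and 289, 310, 272 and 290 in siYT. All siYT libraries were below all siCON libraries, but the difference of 1.38-fold was too small for a call (-0.46 ± 0.05 on the log2 scale, adjusted p = 1.5e-06). H3F3A read 94.7, 96.0 and 86.9 in siCON and 97.8, 101, 93.3 and 95.8 in siYT, overlapping (log2 fold change 0.07, adjusted p = 0.257). H3F3A may share reads with near-identical genes, since its values were not whole multiples of the lowest value of the library, and its own level is uncertain. The pseudogene H3F3AP4 read 190 to 197 in siCON and 174 to 202 in siYT. H3F3B overlaps UNK on the opposite strand.

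The 18 members below the filter averaged 0.126 to 0.667, of which 14 code for protein. In 11 of the 14 the siYT mean was above the siCON mean, but the groups were apart in only 3 (HIST1H1D, HIST1H3D and HIST1H3E, all higher in siYT), beside 60.2% of all 16686 genes of the table whose groups did not overlap. The 3 cluster H3 genes, HIST1H3D, HIST1H3E and HIST1H3H, were all in this low class, and together they read 0.405, 0.277 and 0.705 in siCON and 0.881, 1.33, 1.74 and 1.51 in siYT. With no filter, 1 of the 14 was called higher (HIST1H3D, log2 fold change 0.86, adjusted p = 0.00127 by limma) and 0 lower, the same counts as at an unadjusted p under 0.05 with 1.5-fold. Over all 16686 genes of the table, 2026 were called higher and 1975 lower with no filter. HIST1H3D overlaps HIST1H2AD on the same strand, so its reads are not its own alone.

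Genes that act on histone mRNA were mostly not called. Of 20 genes of the histone locus body, where cluster genes are transcribed, and of 3′ end processing, 3 rose (15%), 2 fell (10%) and 15 were not called (median log2 fold change 0.02), shares near the 14.1% and 13.2% of all genes tested. LSM11, a subunit of the U7 particle that directs cleavage after the stem-loop, rose from 8.23 to 14.3 (1.70-fold, adjusted p = 1.3e-06), and CDK2, the kinase that activates NPAT, rose from 12.3 to 21.5 (1.72-fold, adjusted p = 8.5e-08). ERI1, an exonuclease that trims histone mRNA ends, fell from 18.7 to 9.23 (1.98-fold, adjusted p = 1.19e-08), and CSTF2, a cleavage factor also used in polyadenylation, fell from 19.1 to 10.1 (1.86-fold, adjusted p = 5.9e-08). SLBP itself averaged 36.2 ± 1.62 in siCON and 32.9 ± 1.58 in siYT (adjusted p = 0.0619, limma). NPAT, the activator of cluster genes, averaged 15.4 and 21.1 (adjusted p = 0.000251, limma) and at 1.37-fold was not called. Neither SLBP nor NPAT had overlapping groups.

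Histone chaperones carry histones to DNA and hand them over there. Of 30 tested, 6 rose (20%, beside 14.1% of all genes tested), 1 fell (3.33%, beside 13.2%) and 23 were not called (median log2 fold change 0.10). ASF1B, a chaperone of newly made H3 and H4, rose from 1.62 to 6.36 (3.27-fold, adjusted p = 1.16e-08), HJURP, the chaperone of centromeric H3, from 3.04 to 8.31 (2.51-fold), and UBN1, of the complex that deposits H3.3, from 44.4 to 94.6 (2.12-fold). CHAF1A, the large subunit of the replication-coupled assembly factor, rose 1.90-fold, from 7.47 to 14.6, and IPO4, an importin for H3 and H4, fell 1.82-fold, from 25.4 to 13.8. CENPA, the centromeric H3 variant, which lies outside the symbol rule, rose from 1.64 to 3.34 (1.80-fold, adjusted p = 3.48e-05).

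S phase genes give the setting in which cluster histone mRNA is normally made. Of 25 tested, 4 rose (DTL 3.02-fold, CDC45 1.99-fold, RRM2 1.97-fold and GINS1 1.86-fold), 0 fell and 21 were not called (median log2 fold change 0.25). The 16% that rose is near the 14.1% of all genes tested, while the 0% that fell stands beside 13.2%. The median over all genes tested was 0.003. Whether these differences have a part in those of the cluster histone genes was not tested. Values of 10 of the 24 tested members were not whole multiples of the lowest value of their library in at least 1 library, and their reads may be divided with near-identical genes: HIST2H4A, HIST2H4B, HIST2H2AA3, HIST2H2AA4, HIST2H2BE, HIST1H2AG, HIST1H4J, H3F3A, H3F3B and H2AFV.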

How the data were processed

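Per the labels, polyadenylated RNA was made into TruSeq mRNA libraries. Tools named in the authors' processing notes are STAR 2.6.1, cutadapt 1.18 and Partek 8.0.19.0819, and the build is hg19 (GRCh37). The deposited values are a signal per gene, normalized by TMM and close to CPM in scale. A second deposited file holds the authors' own comparison (p-values, q-values, fold changes, group means) and was not used. Repeat entries of a symbol (1792 of 18478) held identical values and were dropped. Below a gene mean of 2, whole multiples of the lowest value in the library (tolerance 0.05) made up 82.3% of values, too few for a count model. If that lowest value is near 1 read, libraries held about 20700000 to 23900000 reads.

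Values were tested as log2(value + 0.5), which understates the change of low genes, with limma 3.58.1 (mean-variance trend, R 4.3.3) in genes with a mean of at least 1. Tests were checked on simulated data. The labels do not say whether replicates are separate cultures, so the p-values cover the spread among these libraries alone, and that spread may be technical. The members and lists were chosen with earlier results of these data known. Members averaging at least 5 or called are given with all their values, and up to 4 called genes of each list are named. IPO4, SLBP, NPAT and H3F3AP4 were named outside this rule, after their values were seen. Lists were histone locus body and 3′ end processing, chaperones, S phase, histone genes outside the rule (1 of 5, CENPA, in the table) and markers of 5 cell types. Alternatives were other pseudocounts, filters and scalings, removal of a transcript length trend (lengths for 14744 symbols), omission of each library, a replicate block, averaging siYT A and B, and, chosen after seeing the data, summing identical copies.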

Additional observations from a re-analysis of the deposited data

Results flagged for a closer look

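H2AFZ in siYT C, at 90.0, stood apart from the other siYT libraries, which read 105 to 107. Its gap to the nearest library was 0.887 of the range of the group, above Dixon's critical value for 4 samples. Of 24 histone genes examined in siYT this was the only one with such a library. Chance alone gives about 1 in 20 groups.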

How the results depend on the processing

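Over 19 alternative settings the number of histone genes called higher was 5 to 9 (7 in the reported analysis) and the number called lower 4 to 6 (6 in the reported analysis). Of the 13 called genes 10 were called under every setting that tested them. H2AFJ missed the 1.5-fold threshold with equal totals (log2 fold change -0.54), with the length trend removed (-0.57) and without siCON A (-0.54). HIST1H4J missed it with a pseudocount of 2 (-0.39), with the length trend removed (-0.46) and without siCON A (-0.55), and HIST1H4H with a pseudocount of 2 (0.49). That pseudocount also lowered HIST1H2AG to 0.68 and HIST3H2A to -0.67, which both kept their call. HIST2H4B passed it in 8 settings, at 0.59 to 0.68. The direction turned once, for H2AFY2 with equal totals (0.021). Scaling to equal totals moved the median of all genes from 0.003 to 0.11 and the calls over all genes from 1847 higher and 1732 lower to 2340 and 1280, and the histone calls to 8 and 5. The causes were not tested.

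With a replicate block the counts were 7 higher and 6 lower. Deviations of same-lettered libraries had correlations of 0.16 (A), 0.025 (B) and 0.18 (C). Those of different letters ran from -0.21 (siCON C with siYT B) to 0.18 (siCON A with siYT B). These values do not settle whether the letters pair the samples, and the letters were not taken to do so. Low signal limits the 18 members that were not tested, and the copies of HIST2H4 and HIST2H2AA cannot be separated.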
